A study of Mus musculus with 4 samples.

Results

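Histones are the proteins around which nuclear DNA is wrapped, and the genes that encode them were followed here in mouse splenic regulatory T cells, the CD4 T cells that express Foxp3 and restrain immune responses. The members were the transcript clusters, the array's gene-level units, whose platform annotation gives exactly 1 symbol and whose symbol is that of a histone gene of the Hist1, Hist2 or Hist3 clusters, an H1f gene or a named variant. There were 35 such clusters for 34 genes, of 30145 genes tested and 65528 transcript clusters in all. Of the 34 genes, 25 were replication-dependent, 5 were variants, 3 were germ-line members of the clusters and 1 was a pseudogene. These classes were assigned from the gene symbols alone, so a single gene may behave otherwise than its class. Another 41 clusters carried several symbols with at least 1 histone gene among them, and no gene is named from those.

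The tested arrays, labelled KO, came from mice in which the Foxp3EGFP-cre transgene was combined with a floxed Bmi1 allele on C57BL/6 (replicates 1 and 2). The control arrays, labelled WT, came from mice with the same Cre transgene on C57BL/6 without the floxed allele (replicates 1 and 3), so both groups carried Cre under Foxp3 control. Bmi1 is a subunit of Polycomb repressive complex 1, which attaches ubiquitin to histone H2A. The mice were 7 to 8 weeks old, and 15000 to 40000 green fluorescent cells were sorted per sample. The titles and treatment field describe unstimulated cells, whereas the series text speaks of cells stimulated by way of CD3 and CD28. Which of these applies to the arrays is unknown. Separate animals are not stated for the 4 samples. The p-values therefore reflect the spread among them, which may be technical, and precision is limited by having 4 arrays.

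All values are the authors' log2 expression values, and differences are KO minus WT on that scale. Array medians lay between 4.65 and 4.72, and the median difference over all genes was 0.01. Bmi1 itself read 9.58 and 9.91 in the arrays labelled KO, against 8.98 and 8.98 in those labelled WT, so no loss was seen. Whether its probes lie in the floxed part of the gene is not known here. The reading therefore cannot settle whether the labels hold, and every direction below rests on the labels alone. The T cell and regulatory T cell markers averaged 14.80 and 14.74 in the arrays labelled KO, against 14.64 and 14.67 in those labelled WT. B cell markers averaged 4.83 to 4.94, myeloid 4.38 to 4.56, erythroid 4.54 to 4.64 and platelet markers 4.26 to 4.37 over the 4 arrays, all below the median gene at 5.04. Single markers stood above it, among them Cd79b of B cells at 7.42 to 7.91 and S100a9 of myeloid cells at 5.05 to 5.34, and Cd68 read 5.02 to 5.79. The table has no detection call and holds no true 0.

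Replication-dependent histone genes are transcribed mainly in S phase, when new DNA must be packed, and lie in dense clusters, chiefly the Hist1 cluster on chromosome 13 and the Hist2 cluster on chromosome 3. Their mRNAs end in a stem-loop in place of a poly(A) tail, bound by the protein Slbp. Within a family the copies encode nearly the same protein. Variant histones such as H2afz and H2afy lie outside the clusters, have polyadenylated mRNAs and are made through the cell cycle, whereas H2afx is known to give both a stem-loop and a polyadenylated mRNA. The labelling step of the array is not given in the sources used here, so how well mRNAs without a poly(A) tail were captured is not known.

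The regions before 5 genes are shown because they hold short motifs that promoters of the clustered genes share, whether or not the gene read higher. Each line gives the 250 bases before the annotated start, from the RefSeq promoter table of build GRCm38.p6, 5′ to 3′ on the gene's strand, with 3 motifs in capitals wherever they match on either strand. One is CCAAT, known as the binding site of NF-Y. The next is TATAAA, the sequence of the TATA box. The last is TTTGCAT, the core of the octamer known from H2B promoters. Hist1h2bm, Hist2h2bb and Hist1h2bk are H2B genes that read higher in both arrays labelled KO, Hist1h2bb is an H2B gene that did not, and H2afz is a variant. The windows are chr13:21721794-21722043 (Hist1h2bm), chr3:96269450-96269699 (Hist2h2bb), chr13:22035571-22035820 (Hist1h2bk), chr13:23746484-23746733 (Hist1h2bb) and chr3:137864237-137864486 (H2afz), all on the plus strand.
Hist1h2bm: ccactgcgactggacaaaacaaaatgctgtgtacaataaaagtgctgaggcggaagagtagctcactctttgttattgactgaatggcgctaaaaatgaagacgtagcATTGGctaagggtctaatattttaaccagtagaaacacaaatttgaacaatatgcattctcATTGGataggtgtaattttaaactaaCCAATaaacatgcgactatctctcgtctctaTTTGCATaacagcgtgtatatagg
Hist2h2bb: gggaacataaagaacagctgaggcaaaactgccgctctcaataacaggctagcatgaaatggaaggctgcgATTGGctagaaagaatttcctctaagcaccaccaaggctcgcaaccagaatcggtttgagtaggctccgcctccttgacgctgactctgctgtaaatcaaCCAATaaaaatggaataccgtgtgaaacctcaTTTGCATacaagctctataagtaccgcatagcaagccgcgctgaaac
Hist1h2bk: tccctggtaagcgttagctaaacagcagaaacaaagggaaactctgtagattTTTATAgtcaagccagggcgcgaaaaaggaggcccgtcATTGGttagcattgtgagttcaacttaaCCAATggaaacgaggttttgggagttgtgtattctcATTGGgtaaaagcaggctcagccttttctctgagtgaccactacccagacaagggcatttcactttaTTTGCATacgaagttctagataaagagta
Hist1h2bb: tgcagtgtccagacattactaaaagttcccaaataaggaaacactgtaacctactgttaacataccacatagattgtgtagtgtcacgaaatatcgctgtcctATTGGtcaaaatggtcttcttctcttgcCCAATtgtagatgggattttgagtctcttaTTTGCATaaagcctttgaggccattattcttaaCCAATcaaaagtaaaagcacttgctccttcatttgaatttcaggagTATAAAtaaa
H2afz: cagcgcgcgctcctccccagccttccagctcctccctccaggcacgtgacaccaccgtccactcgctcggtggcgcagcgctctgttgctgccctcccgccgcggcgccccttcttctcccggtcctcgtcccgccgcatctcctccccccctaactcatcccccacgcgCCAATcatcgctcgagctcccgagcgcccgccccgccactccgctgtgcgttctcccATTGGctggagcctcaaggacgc

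Of the 34 members, 29 had a promoter window in that table, which spans 250 bases before and 50 after the start. CCAAT stood in 21 of 22 windows of replication-dependent members (95.5%), in 2 of 4 windows of variants and in 37.4% of all 32851 windows. TATAAA stood in 12 of the 22 (54.5%), in 0 of the 4 variant windows and in 13.6% of all windows. TTTGCAT stood in 4 of 6 H2B windows (66.7%), 2 of 8 H2A windows and 0 windows of the H1, H3 and H4 members, against 4.63% of all windows. These matches describe letters only. They count either strand and any place in the window, the 50 bases after the start included, so TATAAA counts do not place a TATA box. In Hist1h2bk, for example, TATAAA lies on the other strand, 198 to 193 bases before the start. Hist1h2bb, which did not read higher, holds the octamer core, as do Hist1h2bm and Hist2h2bb, which did. Among all annotated histone genes, 9 pairs lie head to head with overlapping windows, all of them an H2A with an H2B gene, and 6 members belong to such a pair. The windows of Hist1h2ah and Hist1h2bk overlap by 277 bases, so the Hist1h2bk line above also holds most of the Hist1h2ah promoter.

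Most replication-dependent histones read higher in the arrays labelled KO, but no single member passed the test. Of the 25, 19 were higher and 6 lower, with a median difference of 0.28, where 51.1% of all genes were higher and the median was 0.01. The arrays did not overlap for 12 members, all with KO above WT, where 21.0% of all genes lay above and 17.5% below. With limma, 8 members had an unadjusted p under 0.05, all higher, and 0 lower, where 6.36% of all genes were so higher and 3.76% so lower. After Benjamini-Hochberg adjustment over all 30145 genes, limma called 0 members, and it called 0.00663% of all genes. The median deviation of these 25 genes from their own means was 0.05 and 0.14 in KO replicates 1 and 2, against -0.11 and -0.12 in WT replicates 1 and 3. The median difference was 0.13 without KO replicate 2, and the count of 8 fell to 5 without WT replicate 3. By gene cluster, 15 of 19 Hist1 members were higher, with a median of 0.31, and 4 of 6 Hist2 members, with a median of 0.09.

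**Figure D1:**
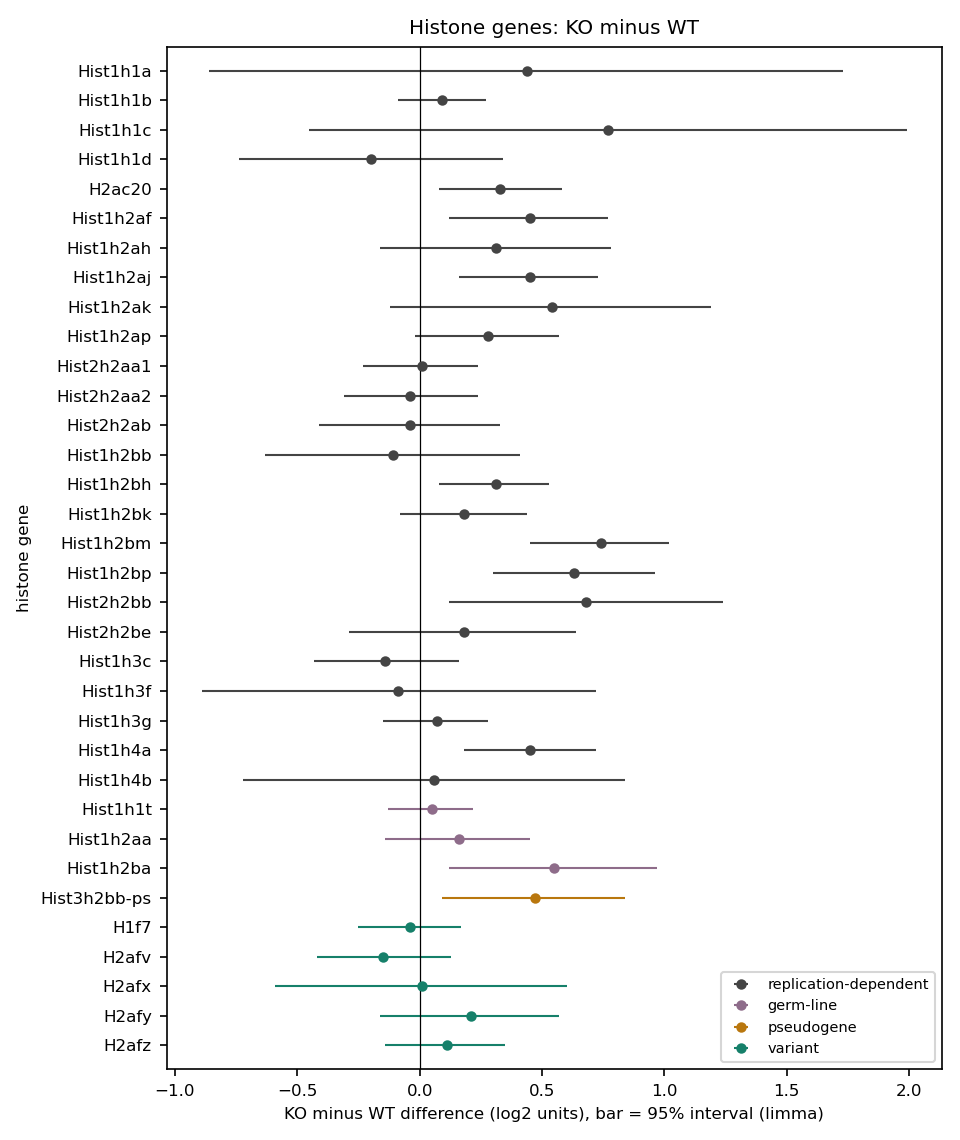
KO minus WT difference of each of the 34 histone genes (log2 units, horizontal axis), with points for the fitted difference and bars for its 95% interval from limma, coloured by class. The H2A and H2B genes hold most intervals that lie above 0, no interval lies wholly below 0, and the 5 variants at the bottom all have intervals that include 0.

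H2B genes, which encode the partner of H2A in the nucleosome, had the members with the smallest p. Hist1h2bm (H2bc14 in RefSeq) read 4.59 and 4.84 in the arrays labelled KO, against 3.95 and 4.01 in those labelled WT. Both KO values lay above both WT values, by 0.74 on average (SE 0.11, 95% interval 0.45 to 1.02, 1.66-fold, limma p 0.00108, adjusted p 0.258). All 4 values lay below the median gene. Hist1h2bp (H2bc22) read 5.43 and 5.64 in KO, against 4.80 and 5.01 in WT. The groups did not overlap, and the difference of 0.63 (SE 0.13) had a limma adjusted p of 0.295. Hist2h2bb (H2bc18) read 7.57 and 8.16 in KO, against 7.22 and 7.15 in WT. Its KO arrays were 0.59 apart, further than the lower of them was from either WT array, and the difference was 0.68 (SE 0.22, limma adjusted p 0.421), or 0.39 without KO replicate 2. Hist1h2bh (H2bc9) was dim, with 3.79 and 3.90 in KO, against 3.61 and 3.47 in WT, a difference of 0.31 (SE 0.09, limma adjusted p 0.396).

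The remaining H2B members were closer together. Hist1h2bk, the gene that shares its promoter with Hist1h2ah, differed by 0.18 (SE 0.10) without overlap, and Hist2h2be by 0.18 (SE 0.18) with overlap. Hist1h2bb read 6.32 and 6.55 in KO, against 6.29 and 6.80 in WT, so that 1 WT array was the highest of the 4. Its difference was -0.11 (SE 0.20, 95% interval -0.63 to 0.41). In all, 6 of 7 H2B members were higher, where 51.1% of all genes were, with a median of 0.31. At an unadjusted limma p under 0.05, 4 were higher and 0 lower, where 6.36% of all genes were higher and 3.76% lower.

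H2A genes, whose protein is the one that Polycomb repressive complex 1 marks with ubiquitin, were mostly higher as well. Hist1h2aj (H2ac14) read 15.26 and 14.98 in the arrays labelled KO, against 14.71 and 14.64 in those labelled WT. The groups did not overlap, and the difference was 0.45 (SE 0.11, 1.36-fold, limma p 0.0106, adjusted p 0.359). Hist1h2af (H2ac10) read 14.07 and 13.78 in KO, against 13.43 and 13.53 in WT, a difference of 0.45 (SE 0.13, limma adjusted p 0.382). Bright genes as a whole were higher in the arrays labelled KO: the 738 genes with a mean level of 13 to 16, a range chosen after the values were seen, had a median difference of 0.18. Of these, 597 were higher and 140 lower, and 413 lay above and 45 below without overlap. At an unadjusted limma p under 0.05, 257 were higher and 20 lower. Hist1h2aj and Hist1h2af count among the replication-dependent members with such a p. After a further quantile normalization the median of the 738 genes was 0.07, and the differences were 0.32 for Hist1h2aj and 0.34 for Hist1h2af.

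H2ac20 read 6.03 and 6.03 in KO, against 5.73 and 5.67 in WT. The difference of 0.33 (SE 0.10) had a limma adjusted p of 0.398. Hist1h2ak (H2ac15) differed by 0.54 (SE 0.26, limma p 0.0900), with 7.03 and 7.56 in KO, against 6.50 and 7.02 in WT. Its lower KO array was almost level with its higher WT array, and its difference was 0.28 without WT replicate 1 and 0.27 without KO replicate 2. Hist1h2ap and Hist1h2ah differed by 0.28 (SE 0.12) and 0.31 (SE 0.19). Hist2h2aa1, Hist2h2aa2 and Hist2h2ab of the Hist2 cluster lay between -0.04 and 0.01, and Hist2h2ab read 5.66 and 5.44 in KO, against 5.73 and 5.45 in WT. Of 9 H2A members, 7 were higher, where 51.1% of all genes were, with a median of 0.31.

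**Figure D2:**
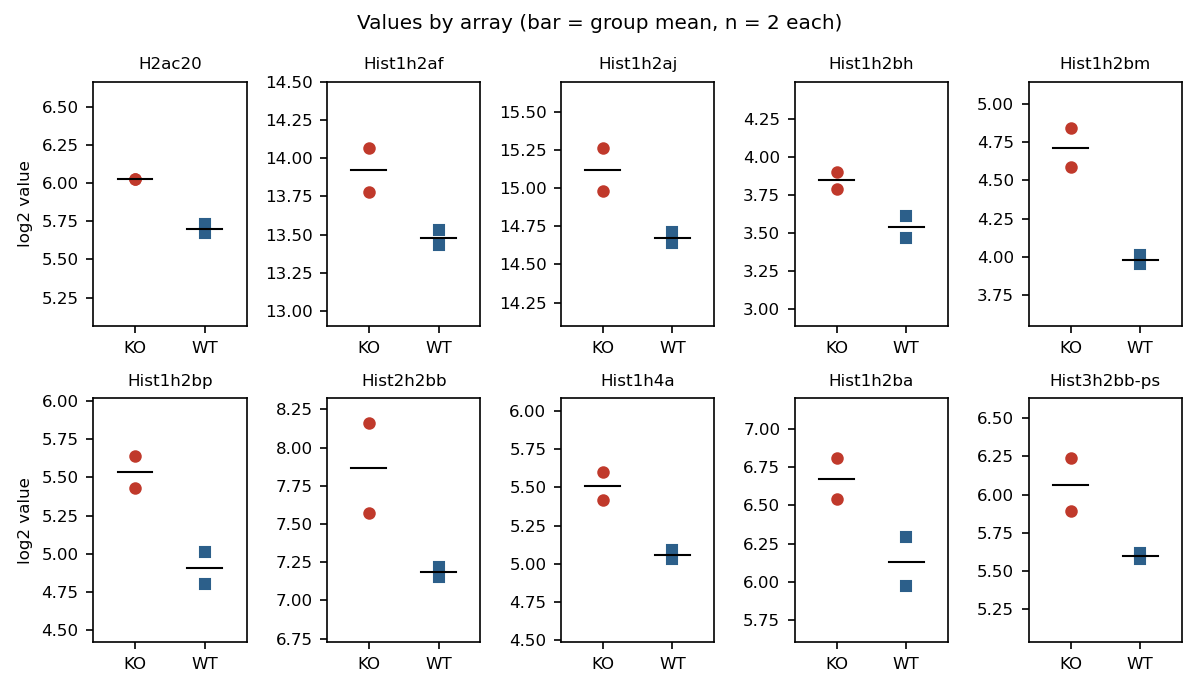
Log2 value of each array for the 10 histone genes with an unadjusted limma p under 0.05, KO (circles) left of WT (squares), with a bar at each group mean and n = 2 each. Every panel spans the same range of log2 units around its own mean, and in all 10 both KO values lie above both WT values; the 2 KO points of H2ac20 coincide at 6.03.

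Linker histone H1 genes, whose proteins bind the DNA between nucleosomes, varied within the groups. Hist1h1c (H1f2) read 10.86 and 10.11 in the arrays labelled KO, against 10.36 and 9.07 in those labelled WT. The groups overlapped, WT replicate 3 stood lowest, and the difference was 0.77 (SE 0.48, 95% interval -0.45 to 1.99). Leaving out single arrays gave Hist1h1c differences of 0.13 to 1.42. Hist1h1a (H1f1) read 4.75 and 6.29 in KO, against 4.85 and 5.32 in WT, a difference of 0.44 (SE 0.51), with KO replicate 2 the highest of the 4. Hist1h1d (H1f3) read 4.64 and 4.75 in KO, against 5.20 and 4.59 in WT, a difference of -0.20 (SE 0.21). Hist1h1b (H1f5) read 2.89 to 3.05 in the 4 arrays, well below the median gene.

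The core histones H3 and H4, which form the tetramer at the centre of the nucleosome, had few members of their own, with medians of -0.09 over 3 H3 members and 0.26 over 2 H4 members. Hist1h3c (H3c3) read 3.93 and 3.96 in KO, against 4.22 and 3.94 in WT, a difference of -0.14 (SE 0.11, 95% interval -0.43 to 0.16). Hist1h3g (H3c8) read 3.66 and 3.54 in KO, against 3.58 and 3.49 in WT, a difference of 0.07 (SE 0.08). Hist1h3f (H3c7) read 4.73 and 5.69 in KO, against 5.23 and 5.36 in WT, so that its KO arrays enclosed both WT arrays. Hist1h4a (H4c1) did not overlap between groups, with 5.60 and 5.42 in KO, against 5.09 and 5.03 in WT. Its difference was 0.45 (SE 0.11, 95% interval 0.18 to 0.72, limma p 0.00799, adjusted p 0.345). Hist1h4b (H4c2) differed by 0.06 (SE 0.31) on the cluster used and by -0.14 (SE 0.17) on its other cluster, with overlap on both. Whether the families differ from one another was not tested.

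The copies are so alike that probe sets of 1 gene can read RNA of another, and 9 of the 25 replication-dependent members are also listed on a cluster with several symbols. Those clusters were therefore read by family, from a fit over all 65528 transcript clusters. In that fit 4.26% of clusters were higher and 5.16% lower at an unadjusted limma p under 0.05, 17.3% lay above and 20.5% below without overlap, and 46.1% had a difference above 0. At an adjusted limma p under 0.05, 0 of the 41 passed, where 0.00610% of all clusters did. Of the 41 clusters, 36 carry symbols of a single family, and most of these share their set of symbols with other clusters, so they are not separate measurements of separate genes.

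The H2B clusters with several symbols held the largest differences among the H2B readings. Of 9, 8 were higher, 6 lay above WT without overlap and 5 had an unadjusted limma p under 0.05, all higher, with a median of 0.40. The cluster with the largest difference, TC1300001555.mm.1, read 11.05 and 10.98 in the arrays labelled KO, against 9.87 and 9.83 in those labelled WT. The arrays within a group were at most 0.07 apart, and the difference was 1.17 (SE 0.14, 95% interval 0.81 to 1.52, 2.24-fold, limma p 3.74e-04, adjusted p 0.286). It kept 1.13 to 1.20 when any single array was left out. TC1300000177.mm.1 read 10.66 and 10.67 in KO, against 9.54 and 9.74 in WT, a difference of 1.03 (SE 0.15). These clusters and 2 others that differed by 0.80 and 0.69 carry the same 4 H2B symbols of the Hist1 cluster. A different set of 3 H2B symbols gave 0.02 (SE 0.65) and -0.14 (SE 0.52), with WT arrays of 6.12 and 8.04 on one cluster and KO arrays of 10.02 and 11.61 on the other.

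All 9 H2A clusters with several symbols were higher, 8 of them without overlap, with differences of 0.17 to 0.51 and a median of 0.24. TC1300001562.mm.1, one of them, read 14.87 and 14.64 in KO, against 14.20 and 14.30 in WT, a difference of 0.51 (SE 0.11), or 0.40 after a further quantile normalization. The 7 H3 clusters differed by 0.03 to 0.37, with a median of 0.11 and 1 without overlap. On 2 clusters shared by H3f3a, H3f3b and other listed genes, the genes of the replacement variant of H3, differences were 0.09 (SE 0.13) and 0.04 (SE 0.14). Members and clusters with several symbols were also counted in a single set per family. In KO, 16 of 18 H2A, 14 of 16 H2B, 8 of 10 H3 and 10 of 13 H4 clusters were higher. Their medians were 0.26, 0.40, 0.08 and 0.04, and 46.1% of all transcript clusters had a difference above 0. However, 7 of the H2A clusters carry the same 10 symbols, 4 of the H2B clusters the same 4 and 10 of the H4 clusters the same 13. Also, 9 replication-dependent members are listed on clusters with several symbols. The counts can therefore include the same RNA more than once and are not counts of separate genes.

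**Figure D3:**
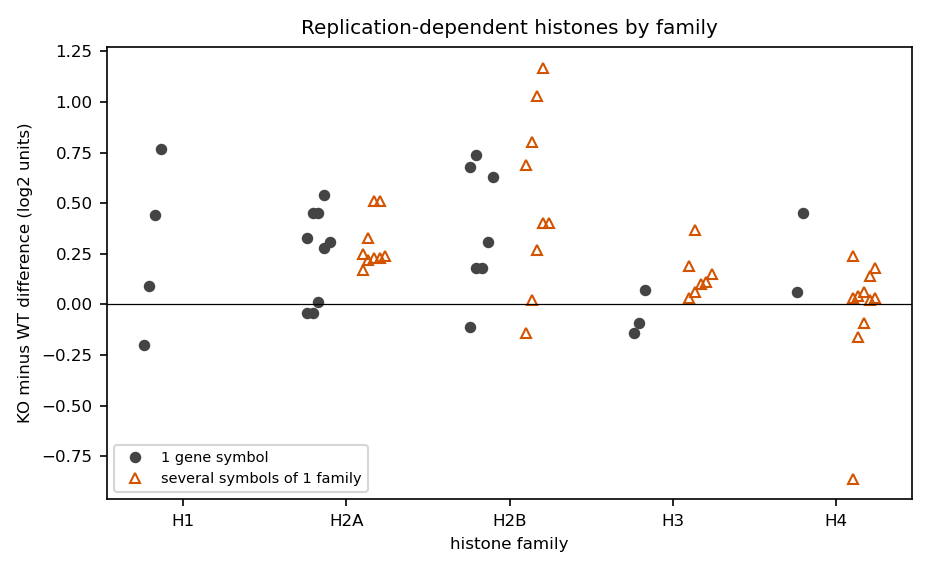
KO minus WT difference (log2 units, vertical axis) of the replication-dependent histone clusters by family, as filled circles for clusters with 1 gene symbol and open triangles for clusters with several symbols of that family. H2B triangles reach 1.17, all 9 H2A triangles lie above 0, and the H4 triangles gather around a median of 0.03 with 1 at -0.86.

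H4 clusters with several symbols varied within the groups rather than between them. Of 11, 8 had KO arrays more than 0.5 apart and 8 had WT arrays more than 0.5 apart. The median distance between replicates was 0.63 in KO and 0.59 in WT, against 0.13 and 0.15 over all clusters. TC1300000244.mm.1 read 10.92 and 11.73 in KO replicates 1 and 2, against 10.88 and 11.70 in WT replicates 1 and 3. TC1300000250.mm.1 read 10.45 and 12.04 in KO, against 11.51 and 12.70 in WT. On 7 of the 11, KO replicate 2 was above KO replicate 1 and WT replicate 3 above WT replicate 1. Among these H4 clusters 0 separated the groups, 8 were higher and 3 lower in KO, and none had an unadjusted limma p under 0.05. Of the 11, 10 carry the same 13 H4 symbols, and the other also carries 13, written in the newer naming. The 11 are therefore not separate genes.

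**Figure D4:**
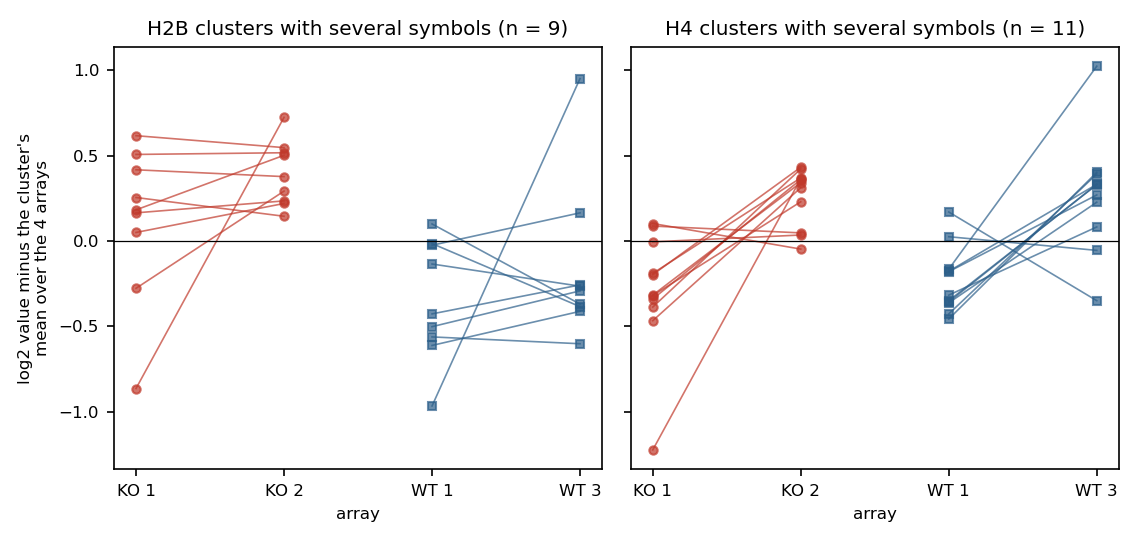
Log2 value minus the cluster's own mean over the 4 arrays (vertical axis) for the 9 H2B clusters (left) and the 11 H4 clusters (right) with several symbols, with lines joining the 2 arrays of a group (KO circles, WT squares). Most H2B lines lie above 0 in KO and below 0 in WT, whereas most H4 lines join arrays that lie far apart within each group, with median deviations of -0.32 and 0.34 in KO replicates 1 and 2 and -0.32 and 0.33 in WT replicates 1 and 3.

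The variant histones showed no common direction. H2afz, the H2A variant found around gene starts, read 16.92 and 16.67 in the arrays labelled KO, against 16.65 and 16.73 in those labelled WT. The groups overlapped, and the difference was 0.11 (SE 0.10, 95% interval -0.14 to 0.35), or -0.01 after a further quantile normalization. H2afv, which encodes a near copy of the H2afz protein, read 14.10 and 14.04 in KO, against 14.10 and 14.33 in WT, a difference of -0.15 (SE 0.11). H2afx, which is phosphorylated at DNA breaks, read 10.48 and 10.07 in KO, against 10.02 and 10.52 in WT. Each group held 1 high and 1 low array, and the difference was 0.01 (SE 0.23, 95% interval -0.59 to 0.60). H2afy, the macroH2A gene linked to silent chromatin, read 10.11 and 10.13 in KO, against 9.79 and 10.04 in WT, the 1 variant without overlap, with a difference of 0.21 (SE 0.14, limma adjusted p 0.716). Another cluster of this gene, listed under the symbol Macroh2a1 and so outside the member rule, read 4.15 and 4.14 in KO, against 4.37 and 4.33 in WT (-0.21, SE 0.09). The mean of both clusters differed by 0.00, and without WT replicate 1 the H2afy difference was 0.08. H1f7, a linker histone of spermatids, read 3.93 to 4.04 in the 4 arrays.

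Of the 5 variants, 3 were higher and 2 lower, with a median of 0.01. At an unadjusted limma p under 0.05 there were 0, where 6.36% of all genes were higher and 3.76% lower. The median was 0.20 without KO replicate 2. The intervals of H2afx, H2afy and H2afz include 0.28, the median difference of the replication-dependent genes, and so do not exclude a shift of that size. The intervals of H2afv (-0.42 to 0.13) and H1f7 (-0.25 to 0.17) do not reach it. H1f7 lay below the median gene in every array and has no detection call, so its interval cannot show whether its RNA shifted. The difference between the classes was not tested. In a list of 11 measured variants, among them the member H1f7 and Cenpa of the centromere, 5 were higher and 6 lower, and 0 had an unadjusted limma p under 0.05. With only 5 and 11 genes, counts of 0 lie near the shares over all genes. H2aj had 0.22 (SE 0.12) and H2al2a -0.25 (SE 0.10).

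The 3 germ-line members of the clusters and the pseudogene had differences above 0 without overlap, where 21.0% of all genes lay so above. Of the 3 germ-line members, 1 had an unadjusted limma p under 0.05, where 6.36% of all genes were so higher. Hist1h2ba (H2bc1), an H2B gene known from testis, read 6.54 and 6.81 in KO, against 6.29 and 5.97 in WT, a difference of 0.55 (SE 0.17, limma p 0.0214, adjusted p 0.406). Hist1h2aa, which lies head to head with it, read 5.96 and 5.78 in KO, against 5.67 and 5.76 in WT, a difference of 0.16 (SE 0.12). Hist1h1t, the testis linker histone, read 3.02 to 3.10 in the 4 arrays, well below the median gene, and differed by only 0.05 (SE 0.07). The pseudogene Hist3h2bb-ps read 5.89 and 6.24 in KO, against 5.62 and 5.58 in WT, a difference of 0.47 (SE 0.15, limma adjusted p 0.415), or 0.29 without KO replicate 2. It is also listed on a cluster shared with Hist3h2ba, where the groups overlapped (0.27, SE 0.21).

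Genes that make and handle histone mRNA showed no common direction. Of 25 measured, 11 were higher and 14 lower, with a median of -0.05 (0.00 after a further quantile normalization). At an unadjusted limma p under 0.05, 0 were higher and 2 lower, where 6.36% of all genes were higher and 3.76% lower. These were Npat, the coactivator of histone gene transcription at the histone locus body, with 9.49 and 9.28 in KO, against 9.81 and 9.82 in WT (-0.43, SE 0.14, limma adjusted p 0.420), and Hinfp, which binds H4 promoters (-0.41, SE 0.16, limma adjusted p 0.481). Yy1 had 0.36 (SE 0.15) and Ccne2 0.31 (SE 0.14). Slbp, which binds the stem-loop, read 8.05 and 8.05 in KO, against 8.03 and 8.21 in WT (-0.07, SE 0.13).

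Among histone chaperones, which carry histones to DNA, 17 of 30 were higher and 12 lower, with a median of 0.06. At an unadjusted limma p under 0.05, 1 was higher and 0 lower, where 6.36% of all genes were higher and 51.1% had a difference above 0. That was Nap1l1, a chaperone of H2A and H2B, with 14.69 and 14.49 in KO, against 14.30 and 14.03 in WT (0.43, SE 0.13, limma adjusted p 0.403). Asf1a, a chaperone of H3 and H4, had 0.30 (SE 0.12), Npm1 0.13 (SE 0.06) and Ncl 0.19 (SE 0.09). Nap1l1 and Ncl lie in the range of 13 to 16, where the median over all genes was 0.18. Another list held 14 genes for enzymes that add or remove ubiquitin on H2A and for their partner subunits, Bmi1 included. Of these, 9 were higher and 5 lower, with a median of 0.05. At an unadjusted limma p under 0.05, 2 were higher, Bmi1 and Ring1, and 0 lower. Ring1, a ligase partner of Bmi1, had 0.34 (SE 0.11), Mysm1, a deubiquitinase, -0.36 (SE 0.15) and Usp22 -0.25 (SE 0.13).

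Cell cycle genes were counted beside the histone genes, where over all genes 51.1% were higher and, at an unadjusted limma p under 0.05, 6.36% were higher and 3.76% lower. In the G1 and S phase list 27 of 39 were higher and 12 lower, with a median of 0.09 and overlap for 27, and 4 were higher and 0 lower at such a p. The lowest differences there were those of Gmnn, an inhibitor of replication licensing (-0.63, SE 0.39), and Mcm2, of the replicative helicase (-0.34, SE 0.26). The 4 were Gins1 (0.80, SE 0.15), Prim1 (0.46, SE 0.11), Rpa2 (0.48, SE 0.12) and Dtl (0.42, SE 0.11), all parts of or close to the replication machinery. Pcna, the sliding clamp of DNA polymerase, read 13.80 and 13.64 in KO, against 13.58 and 13.69 in WT (0.09, SE 0.10). In the G2 and M phase list 22 of 29 were higher, with a median of 0.10, and 7 were higher and 0 lower at such a p. Ccna2, a cyclin, had 0.63 (SE 0.16), Tpx2, a spindle factor, 0.65 (SE 0.18), and Birc5, of the chromosomal passenger complex, 0.23 (SE 0.07). Mki67, the proliferation marker, read 8.69 and 8.90 in KO, against 7.17 and 8.09 in WT, a difference of 1.17 (SE 0.32, limma adjusted p 0.375). No member of either list passed at an adjusted p. The lists averaged 7.46 and 7.33 (G1 and S) and 5.30 and 5.29 (G2 and M) in KO, against 7.25 and 7.35 (G1 and S) and 5.07 and 5.16 (G2 and M) in WT. The groups overlapped for the G1 and S mean.

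Among markers of other cells, most plasma cell genes read higher with the same labels. Of 7, 6 were higher, where 51.1% of all genes were, with list means of 6.56 and 6.51 in KO, against 6.13 and 6.29 in WT. At an unadjusted limma p under 0.05, 2 were higher, Jchain and Mzb1, and 0 lower, where 6.36% of all genes were higher. Of the 7, 4 lay below the median gene. Xbp1 (10.98 to 11.50) and Irf4 (7.90 to 8.43) weigh most in the list mean and overlapped between the groups. Jchain read 7.66 and 7.49 in KO, against 6.62 and 6.47 in WT, whereas the surface marker Sdc1 read 4.43 to 4.52 in all 4 arrays, below the median gene. CD8 T cell markers averaged 7.40 and 7.67 in KO, against 6.93 and 7.51 in WT, and natural killer cell markers 5.42 and 5.82 in KO, against 5.18 and 5.34 in WT. Of the 2 CD8 markers, Cd8b1 differed by 0.73 (SE 0.38) with overlap and Cd8a by -0.10 (SE 0.08), and Cd8a lay below the median gene. Of the 3 natural killer cell markers, Eomes differed by 1.08 (SE 0.37), Ncr1 by 0.13 (SE 0.08) and Klrb1c by -0.13 (SE 0.16). The parts of the cell cycle, plasma, CD8 T and natural killer cell genes in the histone differences were not tested, and in these bulk samples a changed number of dividing cells and a changed RNA level per cell cannot be told apart.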

How the data were processed

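Gene expression was measured on 4 microarrays of sorted mouse regulatory T cells, 2 labelled KO and 2 labelled WT. The deposited table holds the authors' normalized log2 values, 1 per transcript cluster and array, and how RNA was labelled is not stated in the sources read. From these values, clusters with exactly 1 symbol in the platform annotation were named, symbols were updated through RefSeq GRCm38.p6, and the cluster with the highest mean was kept for each of 420 genes with several. This left 30145 genes. KO minus WT was fitted with limma 3.58.1 in R 4.3.3 (lmFit, eBayes with a trend), without covariates, and p-values were adjusted by Benjamini-Hochberg over all genes, with a threshold of 0.05. Clusters with several symbols came from the same fit over all 65528 clusters. The fit was run on simulated data whose planted shifts were larger than the difference of any histone member. That run does not show how well differences of the members' size are called. With 2 arrays against 2, an exact permutation test cannot go below p = 0.333. Values in every array are given for each variant, for the brightest, most raised and most lowered replication-dependent member of each family, and for each member with an unadjusted p under 0.05 and no overlap. Up to 4 genes of each other list with the smallest p are named, and Bmi1, Slbp, Npat, Mki67 and Pcna always. Other members, Cenpa, Gmnn, Mcm2, the single markers other than those with the smallest p, and the individual clusters with several symbols were chosen after their values were seen. Members and lists were chosen with earlier results of these data known. Alternatives were centring, quantile normalization, leaving out dim genes, all clusters, the mean of a gene's clusters, other eBayes settings and leaving out each array.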

Additional observations from a re-analysis of the deposited data

How the results depend on the processing

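Of 247 comparisons of 23 named histone genes under 11 alternatives, 234 kept their direction, 12 changed sign, 1 came to 0.00 (H2afy with the mean of the gene's clusters) and 0 passed the adjusted threshold. Many directions were fixed in advance: other eBayes settings, all clusters and leaving out dim genes cannot change a gene's difference. The mean of a gene's clusters can change only genes with several. Sign changes numbered 1 after quantile normalization. Without WT replicate 1, WT replicate 3, KO replicate 1 and KO replicate 2 they numbered 4, 1, 4 and 2 of 23. H2afz read -0.01 after a further quantile normalization. With single arrays left out, differences ran from -0.02 to 0.23 for H2afz, -0.25 to 0.26 for H2afx, -0.09 to 0.01 for H1f7, -0.51 to 0.11 for Hist1h1d, -0.37 to 0.15 for Hist1h2bb, -0.28 to 0.01 for Hist1h3c, -0.57 to 0.40 for Hist1h3f and -0.18 to 0.10 for Hist2h2ab. The count of all genes past the limma adjusted threshold was 2, against 1 with centred arrays, 0 after quantile normalization, 13 among genes at or above the median gene, 4 over all clusters, 0 without a trend, 0 with robust settings and 0 with any single array left out. The replication-dependent median of 0.28 was 0.44 among the 15 brighter members, of which 11 were higher, and 0.08 among the 10 dimmer members, of which 8 were higher. It was 0.13 to 0.31 with single arrays left out. Members with an unadjusted p under 0.05 numbered 5 to 7 and members higher 18 to 22 with single arrays left out. The variant median ran from -0.09 to 0.20 with single arrays left out. Where a value moved otherwise, the cause was not tested. No paired analysis was possible because the groups share only replicate number 1. Signal over background was not given, so dim members such as Hist1h1b have no detection limit here.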
